A study of Mus musculus with 18 samples.

Results

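The imprinted genes examined here are 10 genes that a list names in connection with quiescent blood stem cells: Ndn, Dlk1, Mest, Igf2, Peg3, Plagl1, Grb10, Meg3, Rian and H19. They were found in the deposited expression table by gene symbol, ignoring case, and all 10 were present among 44349 genes. RNA-seq was carried out on mouse bone marrow cells sorted as long-term haematopoietic stem cells, abbreviated LT-HSC, in 6 groups of 3 libraries. KO Reserve cells are the reserve LT-HSC of DERARE knockout mice, and WT Reserve cells are those of wild-type mice. KO Wnt5a cells are knockout cells carrying the Wnt5a label, which the submitters describe as a rescue, and Wnt5a cells carry that label without the knockout. KO Ctrl cells are the knockout controls and WT cells the wild type. DERARE is a distal element through which retinoic acid acts on the Hoxb genes. All groups share a single stated gate, which is negative for lineage markers, CD34 and Flk2, positive for Sca-1 and c-Kit, and low for CD49b. Genotypes follow the sample titles: the submitters' descriptions read "knockout wt control" for KO Ctrl and "wild type reserve ko" for KO Reserve, which leaves their genotype ambiguous there, and each comparison of KO Ctrl or KO Reserve rests on the titles. The labels give no age, no sex, no route or time of Wnt5a exposure, and no statement of how reserve cells were separated. Whether the replicates are separate animals is not stated, and p-values then reflect only the spread between these libraries, which may be technical.

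An imprinted gene is transcribed mainly from the copy inherited from the mother or from the copy inherited from the father, a choice laid down by DNA methylation in the germ line and kept in body cells by factors such as Zfp57, Trim28 and Dnmt1. Ndn, Dlk1, Mest, Igf2, Peg3 and Plagl1 are transcribed from the paternal copy, whereas Meg3, Rian, H19 and, in most tissues, Grb10 are transcribed from the maternal copy. Several of these genes restrain growth or hold stem cells out of the cell cycle, and the H19 and Igf2 cluster and the Dlk1 and Meg3 cluster have known roles in blood stem cells of the mouse. The expression values used here do not separate the parental copies, so they bear on the level of a transcript and not on imprinting itself.

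Levels are FPKM, fragments per kilobase of transcript, scaled to the mapped fragments of the library, and a group level is the mean ± SD over n = 3 libraries. Judged from the level of a single fragment, read from the lowest peak among low values, depth was about 20420000 to 38900000 fragments per library. At that depth 3 fragments on the longest annotated transcript correspond to 0.0209 to 0.0398 FPKM for Ndn, 0.0166 to 0.0316 for Dlk1 and 0.0337 to 0.0643 for H19, limits that cover counting error only. Changes are log2 fold changes on the log2(FPKM + 1) scale, which understates the change of low genes, and a gene counted as called where limma gave an adjusted p (Benjamini-Hochberg) below 0.05. Of the 10 genes, 6 passed the filter of 1 FPKM in at least 3 libraries: Ndn, Dlk1, Mest, Grb10, Meg3 and Rian. H19, Igf2, Peg3 and Plagl1 did not pass and are given by their values.

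The reserve libraries stood apart from the other 12 libraries in markers of other blood cells. Summed over 7 granulocyte markers, KO Reserve libraries held 2378 to 3553 FPKM and WT Reserve libraries 4404 to 10403 FPKM, against at most 10.5 FPKM in any library without the reserve label. Summed over 6 erythroid markers, KO Reserve libraries held 4677 to 6060 FPKM and WT Reserve libraries 3069 to 3899 FPKM, against at most 17.0 FPKM elsewhere. Pf4, a platelet chemokine of the megakaryocyte lineage, ran the other way, at 64.2 ± 22.4 FPKM in KO Reserve and 110 ± 3.31 FPKM in WT Reserve, against group means of 8502 to 22928 FPKM in the other 4 groups. LT-HSC markers such as Procr and Hlf were detected in every group. In these bulk libraries fewer cells of a type and less RNA per cell cannot be told apart. In comparisons within the other 12 libraries the fold changes do not use the reserve libraries, but the shared spread behind their p-values does, and a fit without the reserve libraries, chosen after the data were seen, is given beside the calls made there.

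Dlk1, Meg3 and Rian lie in this order on the plus strand of chromosome 12, and Dlk1 and Meg3 both fell in KO Reserve, while Mest on chromosome 6 had a higher mean there. Their start regions are therefore shown for comparison: the 250 bases before a RefSeq transcript start in GRCm38.p6, 5′ to 3′ on the plus strand, with the CG dinucleotides that can carry imprinting methylation in capitals. The windows are chr12:109452573-109452822 for Dlk1, chr12:109540746-109540995 for Meg3 and chr6:30737800-30738049 for Mest. RefSeq gives 2 starts for Meg3 and 3 for Mest, and the one with the most CG dinucleotides is shown.
Dlk1: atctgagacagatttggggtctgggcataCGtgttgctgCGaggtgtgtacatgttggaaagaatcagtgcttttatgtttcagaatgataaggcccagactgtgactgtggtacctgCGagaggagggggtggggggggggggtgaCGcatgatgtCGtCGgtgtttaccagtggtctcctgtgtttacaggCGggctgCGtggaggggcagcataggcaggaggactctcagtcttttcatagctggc
Meg3: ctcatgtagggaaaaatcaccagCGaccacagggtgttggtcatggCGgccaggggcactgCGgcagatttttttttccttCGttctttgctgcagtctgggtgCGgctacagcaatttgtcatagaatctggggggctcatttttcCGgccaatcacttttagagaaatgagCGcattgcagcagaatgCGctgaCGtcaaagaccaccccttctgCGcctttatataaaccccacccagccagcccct
Mest: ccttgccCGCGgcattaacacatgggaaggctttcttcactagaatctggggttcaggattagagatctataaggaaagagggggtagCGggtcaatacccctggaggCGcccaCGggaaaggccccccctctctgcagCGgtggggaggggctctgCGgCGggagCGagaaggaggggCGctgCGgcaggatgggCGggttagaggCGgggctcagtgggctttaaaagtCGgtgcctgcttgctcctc
The windows not shown hold 0 CG dinucleotides for Meg3, and 7 and 14 for Mest. Of those shown, the Dlk1 window holds 8 CG dinucleotides, the Meg3 window 10 and the Mest window 14, against a median of 6 over 32851 RefSeq windows of the same length. The strand-symmetric cAMP response element TGACGTCA occurs 1 time in the shown Meg3 window and was found in 1.55% of all windows. The hexamer TGCCGC, which ZFP57 recognises when methylated, was sought on both strands and occurs 1 time in the shown Meg3 window, 2 times in the shown Mest window and 0 times in the Dlk1 window, against 8.68% of all windows with a match. The start of Grb10 with the most CG dinucleotides has 40 CG dinucleotides and the start of Ndn has 5. No methylation was measured in these libraries, and a match of letters is a description only. Windows were available for 9 of the 10 genes; H19 had none.

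**Figure D1:**
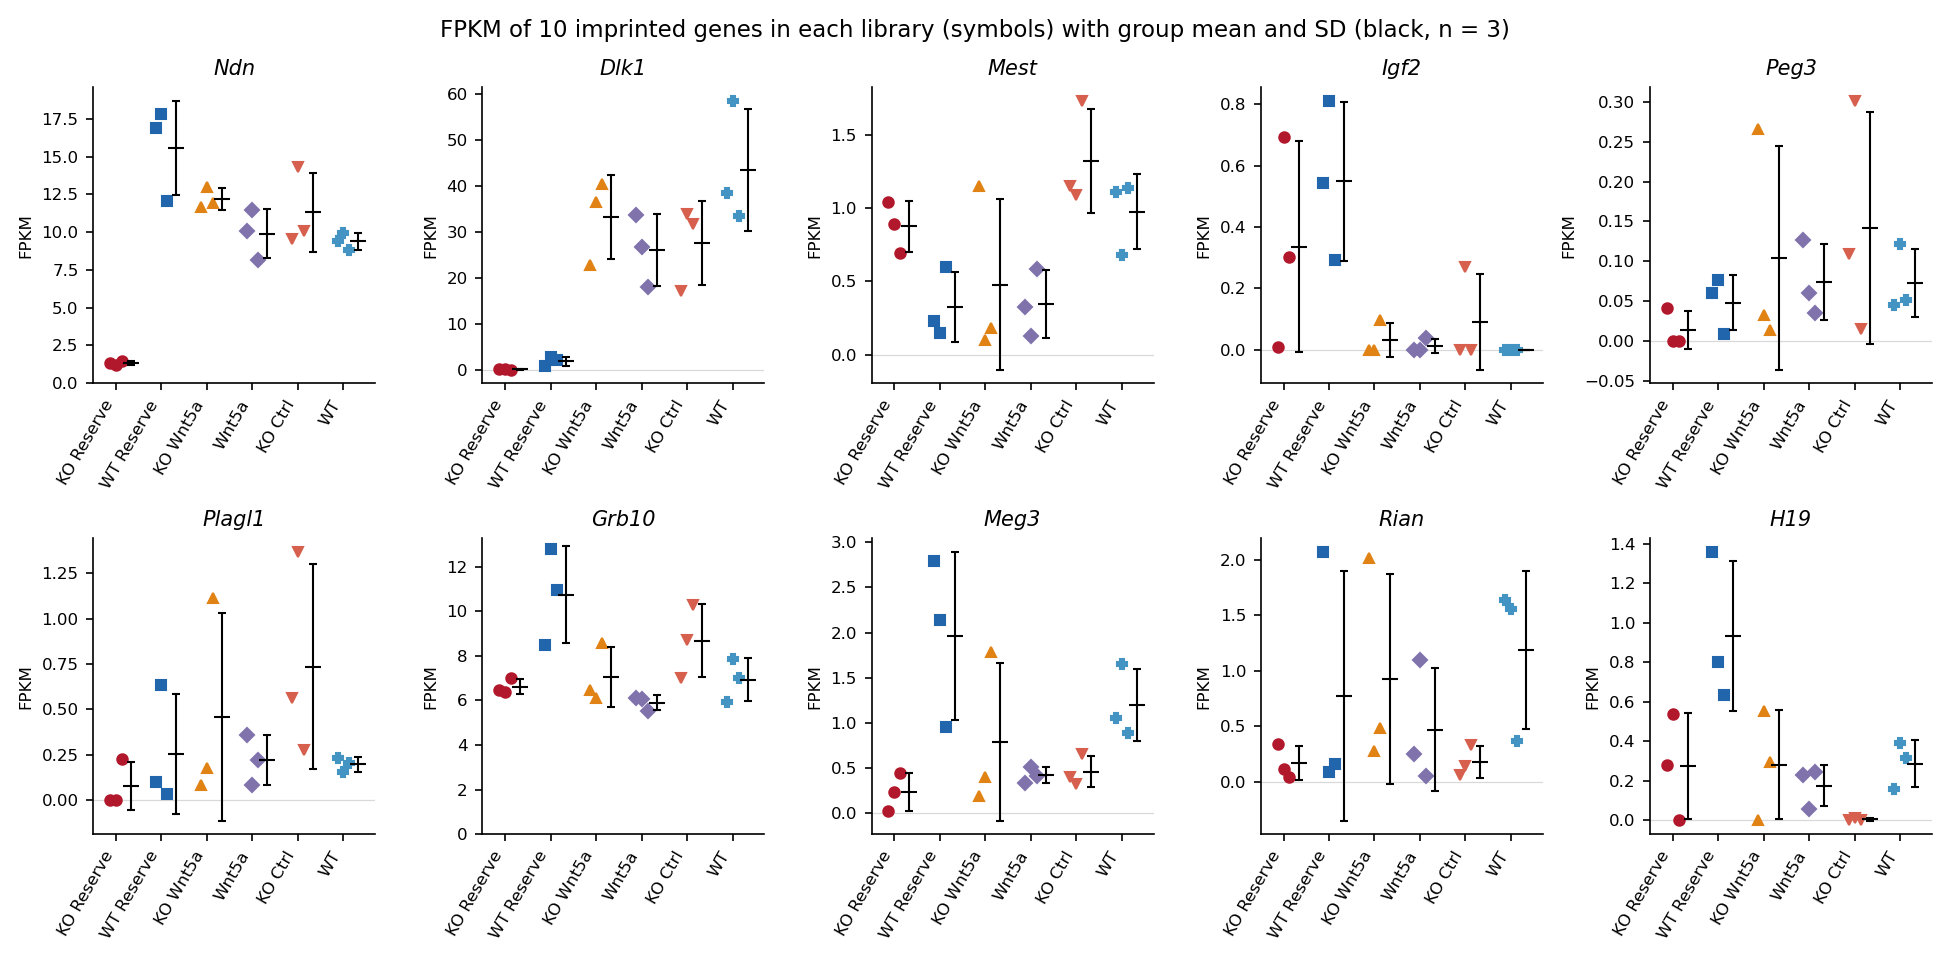
FPKM of the 10 imprinted genes (vertical axis, a linear scale that differs between panels) in the 18 libraries, grouped along the horizontal axis; symbols are libraries and black marks are the mean ± SD of 3 libraries. Ndn is at most 1.45 FPKM in KO Reserve and at least 8.18 FPKM in every other library, and Dlk1 is at most 2.71 FPKM in the 6 reserve libraries and at least 17.3 FPKM in the other 12.

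Knockout reserve cells were compared with wild-type reserve cells to see the effect of genotype in the reserve fraction. Of the 6 imprinted genes tested, 4 fell and 0 rose: Ndn, Dlk1, Meg3 and Grb10. Over all 14285 genes tested 41.3% were called in this comparison, 29.3% as lower, so a call by itself is common there. The groups did not overlap for 5 of the 6 genes, and for 44.7% of all genes. The median change over all genes was -0.17, against which the changes below should be read.

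Ndn (ENSMUSG00000033585, chromosome 7, 62346569 to 62350262, plus strand, GRCm38) encodes necdin, a growth suppressor of the MAGE family that binds E2F1 and p53 and is known to keep blood stem cells quiescent. It stood at 1.31, 1.21 and 1.45 FPKM in KO Reserve libraries, against 16.9, 17.8 and 12.05 FPKM in WT Reserve libraries. The KO Reserve libraries lay close together and far below every WT Reserve library. The mean was 11.8-fold lower in KO Reserve, with a log2 fold change of -2.82 (SE 0.16, 95% interval -3.17 to -2.47, adjusted p = 9.76e-09), and it remained called under all 26 other settings (adjusted p up to 0.00168). In the remaining groups the means were 12.2 ± 0.708 FPKM in KO Wnt5a, 9.89 ± 1.63 in Wnt5a, 11.3 ± 2.61 in KO Ctrl and 9.38 ± 0.567 in WT. In the order of levels, WT Reserve, KO Wnt5a, KO Ctrl, Wnt5a and WT each overlapped the next, and KO Reserve alone was separated from its neighbour.

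Dlk1 (ENSMUSG00000040856, chromosome 12, 109452823 to 109463336, plus strand) encodes a membrane protein with EGF-like repeats related to the Notch ligands, known as an inhibitor of adipocyte differentiation and as a marker of fetal and progenitor cells. It was listed at 0.154, 0.217 and 0 FPKM in KO Reserve libraries, against 0.78, 2.71 and 2.13 FPKM in WT Reserve libraries. Both groups were low, without overlap. The log2 fold change was -1.29 (SE 0.32, 95% interval -1.98 to -0.61, adjusted p = 0.00461), and it came to -3.14 with a pseudocount of 0.1 in place of 1.

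Meg3 (ENSMUSG00000021268, chromosome 12, 109541001 to 109571726, plus strand) is a maternally expressed long noncoding RNA that starts 77.664 kb after the end of Dlk1. It stood at 0.024, 0.236 and 0.443 FPKM in KO Reserve libraries, against 2.79, 2.14 and 0.96 FPKM in WT Reserve libraries. Every KO Reserve library was below every WT Reserve library. The log2 fold change was -1.23 (SE 0.28, 95% interval -1.83 to -0.62, adjusted p = 0.00253), and -2.75 with a pseudocount of 0.1. The antisense gene Gm26906 overlaps Meg3 and was measured at 0.042 to 0.898 FPKM; the library kit keeps no strand, so reads of the overlap cannot be assigned.

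Rian (ENSMUSG00000097451, chromosome 12, 109603940 to 109661716, plus strand) is the maternally expressed host transcript of a small nucleolar RNA cluster and starts 32.213 kb after the end of Meg3. It stood at 0.342, 0.12 and 0.049 FPKM in KO Reserve libraries, against 2.07, 0.094 and 0.161 FPKM in WT Reserve libraries. The groups overlapped, since a single WT Reserve library was high, and the log2 fold change of -0.44 did not pass the test (95% interval -1.28 to 0.41, adjusted p = 0.408). The 3 genes of this cluster therefore did not all pass the test in this comparison, with Dlk1 and Meg3 called and Rian not. The small nucleolar RNA genes DQ267101 and DQ267102 overlap Rian on the same strand. They were listed at 0 to 99.086 and 0 to 124.878 FPKM, and their part in single high Rian libraries was not tested.

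Grb10 (ENSMUSG00000020176, chromosome 11, 11930508 to 12038683, minus strand) encodes an adaptor that binds the insulin and IGF1 receptors and inhibits their signalling. It stood at 6.47, 6.38 and 6.99 FPKM in KO Reserve libraries, against 8.51, 12.8 and 10.96 FPKM in WT Reserve libraries. All KO Reserve values lay below all WT Reserve values, at a change of -0.61 (SE 0.16, 95% interval -0.96 to -0.26, adjusted p = 0.00669). The call was lost after quantile normalization (-0.36, adjusted p = 0.11) and after median-ratio scaling (-0.39, adjusted p = 0.0701).

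Mest (ENSMUSG00000051855, chromosome 6, 30723547 to 30748465, plus strand) encodes a protein with an alpha/beta hydrolase fold. It stood at 1.04, 0.894 and 0.693 FPKM in KO Reserve libraries, against 0.23, 0.147 and 0.597 FPKM in WT Reserve libraries. KO Reserve was above WT Reserve in every library, but the change of 0.51 did not pass the test (95% interval 0.02 to 1.01, adjusted p = 0.091). It passed after quantile normalization (0.72, adjusted p = 0.0166) and after median-ratio scaling (0.63, adjusted p = 0.0339), and without KO Wnt5a replicate 1, a library outside the comparison that bears on the shared spread (adjusted p = 0.037). Mest overlaps Copg2 on the opposite strand, and Copg2, a coatomer subunit gene with 7.46 ± 1.60 FPKM in KO Reserve and 13.6 ± 5.18 FPKM in WT Reserve, changed by -0.74 (adjusted p = 0.0137). Copg2 ran from 5.639 to 19.316 FPKM over the libraries. Since the kit keeps no strand, reads of its overlap with Mest cannot be assigned, in this or any other comparison.

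H19 (ENSMUSG00000000031, chromosome 7, 142575529 to 142578143, minus strand) is a maternally expressed noncoding RNA and the host of miR-675. It stood at 0.281, 0.538 and 0 FPKM in KO Reserve libraries, against 1.36, 0.804 and 0.632 FPKM in WT Reserve libraries. The groups did not overlap, and in a fit without the filter on low values, chosen after the data were seen, the change was -0.61 (adjusted p = 0.0307), where 20.0% of 30242 genes were called. The opposite-strand gene Gm27483 overlaps H19 and was listed at 0 to 118.533 FPKM. Without strand, reads of that overlap cannot be assigned. Igf2 (ENSMUSG00000048583, chromosome 7, 142650766 to 142666816, minus strand), the fetal insulin-like growth factor, lies 72.622 kb from H19. It stood at 0.01, 0.695 and 0.301 FPKM in KO Reserve libraries, against 0.544, 0.811 and 0.293 FPKM in WT Reserve libraries, with overlapping groups and adjusted p = 0.378 in that fit.

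Peg3, a zinc finger gene, never exceeded 0.301 FPKM, and Plagl1, a zinc finger transcription factor that inhibits proliferation, exceeded 1 FPKM in 2 libraries. Peg3 averaged 0.0137 ± 0.0237 FPKM in KO Reserve and 0.0483 ± 0.0350 FPKM in WT Reserve. Plagl1 averaged 0.0763 ± 0.132 FPKM in KO Reserve and 0.256 ± 0.331 FPKM in WT Reserve. The groups overlapped for both genes.

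Cell type markers moved in the same comparison, and their part in the changes above was not tested. Of 8 LT-HSC markers 7 fell, with sums of 59.8 to 66.4 FPKM in KO Reserve and 178 to 277 FPKM in WT Reserve and none at 0. Procr, the endothelial protein C receptor used to isolate LT-HSC, stood at 1.42 ± 0.231 FPKM in KO Reserve and 17.5 ± 3.17 FPKM in WT Reserve (log2 fold change -2.92, adjusted p = 6.15e-08). Of 7 granulocyte markers 6 fell, all 5 tested erythroid markers rose, and 3 of 3 progenitor markers fell, with progenitor sums of 104 to 150 FPKM in KO Reserve and 260 to 317 FPKM in WT Reserve. Among 5 tested megakaryocyte markers 2 fell, with sums of 80.8 to 135 FPKM in KO Reserve and 193 to 215 FPKM in WT Reserve. All 3 tested macrophage and dendritic cell markers fell, with sums of 102 to 156 FPKM in KO Reserve and 651 to 891 FPKM in WT Reserve. Of 4 tested lymphoid markers 2 fell, with sums of 243 to 334 FPKM in KO Reserve and 392 to 433 FPKM in WT Reserve. Endothelial markers summed to 1.06 to 1.86 FPKM in KO Reserve and 7.27 to 18.6 FPKM in WT Reserve, and 2 of 3 tested fell. The 7 markers of marrow stroma, a cell type known to transcribe several imprinted genes, summed to 0.967 to 1.69 FPKM in KO Reserve and 0.742 to 2.23 FPKM in WT Reserve, with 1 of the 7 tested and not called and Col3a1 at 0 in all 6 libraries. Xist, the RNA of the inactive X chromosome, stood at 7.4 ± 2.09 FPKM in KO Reserve and 0.334 ± 0.414 FPKM in WT Reserve. Elsewhere it averaged 4.96 ± 1.59 FPKM in KO Wnt5a, 2.49 ± 0.344 in Wnt5a, 4.96 ± 1.46 in KO Ctrl and 2.56 ± 0.171 in WT. Xist did not overlap between KO Ctrl and WT, between KO Wnt5a and Wnt5a, or between WT Reserve and WT. KO Reserve and KO Ctrl overlapped. The part of these Xist differences in any comparison was not tested either.

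**Figure D2:**
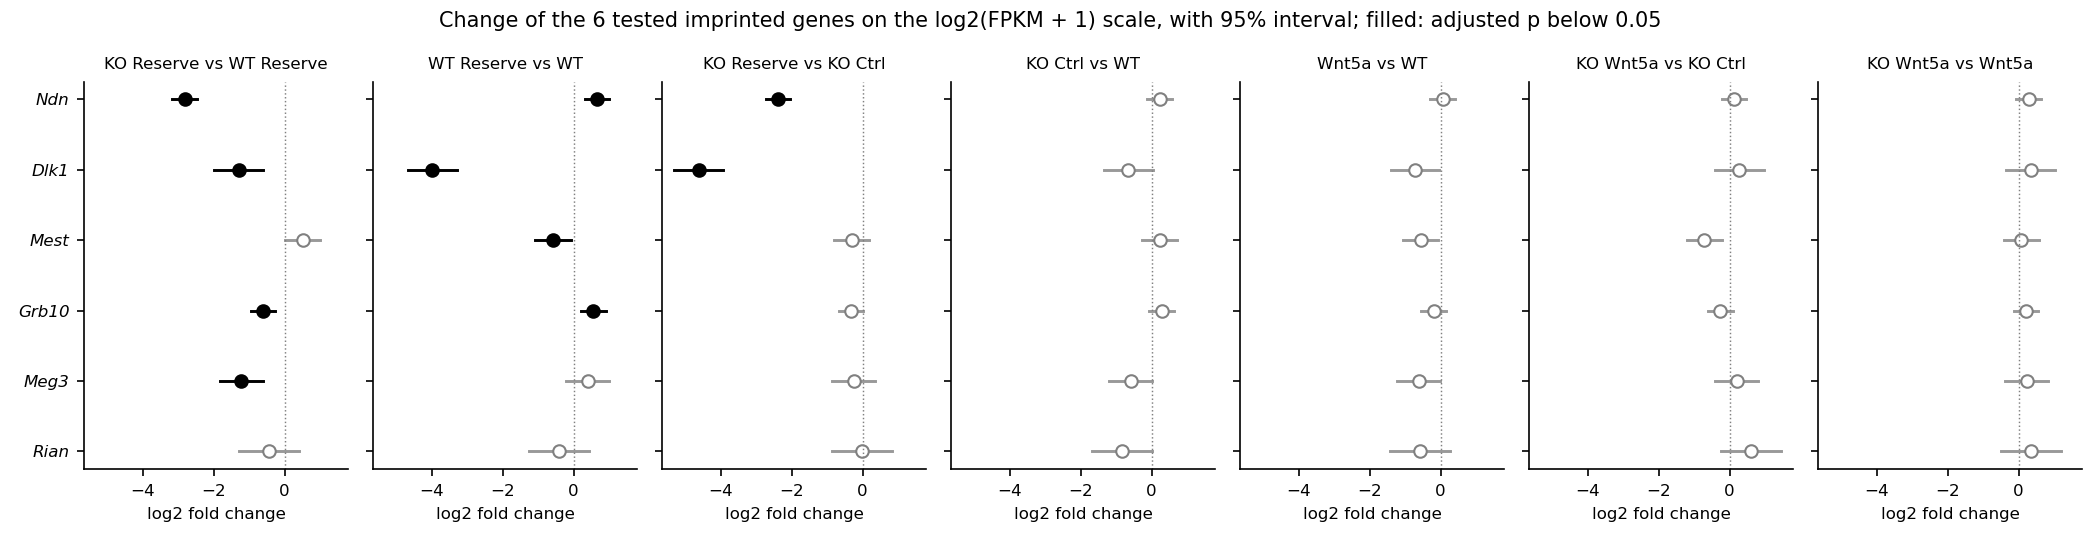
Log2 fold changes on the log2(FPKM + 1) scale (horizontal axis) of the 6 tested imprinted genes (rows) in 7 comparisons (panels), with the first-named group over the second; lines are 95% intervals and filled points have an adjusted p below 0.05. Filled points occur in the 3 comparisons that hold reserve libraries, from -4.62 for Dlk1 to 0.66 for Ndn, and in none of the other 4 panels.

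The reserve label was compared with its absence within each genotype. In wild-type cells Ndn and Grb10 rose and Dlk1 and Mest fell in WT Reserve, 4 of 6 tested genes, against 58.7% of all genes called in that comparison (30.8% higher and 27.9% lower). The groups did not overlap for 4 of the 6 genes, and for 64% of all genes. The largest difference was that of Dlk1, at 0.78, 2.71 and 2.13 FPKM in WT Reserve libraries, against 38.4, 58.5 and 33.6 FPKM in WT libraries. Both sets of libraries were far apart, with a mean 23.2-fold lower in WT Reserve (log2 fold change -3.98, SE 0.32, 95% interval -4.67 to -3.29, adjusted p = 3.56e-08).

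Ndn stood at 16.9, 17.8 and 12.05 FPKM in WT Reserve libraries, against 9.39, 9.95 and 8.81 FPKM in WT libraries. It was higher in every WT Reserve library (0.66, SE 0.16, adjusted p = 0.00245). Grb10 stood at 8.51, 12.8 and 10.96 FPKM in WT Reserve libraries, against 5.93, 7.84 and 7.01 FPKM in WT libraries, also without overlap (0.56, SE 0.16, adjusted p = 0.0076). Mest stood at 0.23, 0.147 and 0.597 FPKM in WT Reserve libraries, against 1.11, 0.678 and 1.14 FPKM in WT libraries. Its change of -0.58 (adjusted p = 0.0416) was called under 17 of 26 other settings, and was lost without WT replicate 1 or 3, WT Reserve replicate 1 or 2, Wnt5a replicate 1 or KO Reserve replicate 2 (adjusted p from 0.05 to 0.126). The limma call was also lost with a pseudocount of 0.1 (adjusted p = 0.0505). Without the filter on low values the adjusted p was 0.614, and 0.0773 with genes at 0 in all libraries left out.

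Meg3 averaged 1.97 ± 0.930 FPKM in WT Reserve and 1.20 ± 0.402 FPKM in WT, and Rian 0.776 ± 1.12 FPKM in WT Reserve and 1.19 ± 0.712 FPKM in WT, with overlapping groups for both (adjusted p = 0.252 for Meg3 and 0.393 for Rian). Without WT Reserve replicate 1, the library high in Rian, Rian was called lower (-0.90, adjusted p = 0.0474). H19 was higher in every WT Reserve library than in the WT libraries, at 0.932 ± 0.381 FPKM in WT Reserve and 0.287 ± 0.119 FPKM in WT. In the fit without the filter, where 30.3% of genes were called, its change was 0.57 (adjusted p = 0.028). Igf2 was listed at 0.293 to 0.811 FPKM in WT Reserve and at 0 in all 3 WT libraries (adjusted p = 0.00835 in that fit). Of all 6 reserve libraries none listed Igf2 at 0, against 9 of the other 12.

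In knockout cells Ndn and Dlk1 fell in KO Reserve, 2 of 6 tested genes, against 65.3% of all genes called and 40.4% called lower. The groups did not overlap for 4 of the 6 genes, and for 67% of all genes. Ndn stood at 1.31, 1.21 and 1.45 FPKM in KO Reserve libraries, against 9.53, 14.3 and 10.1 FPKM in KO Ctrl libraries (-2.38, SE 0.16, adjusted p = 1.62e-09). Dlk1 stood at 0.154, 0.217 and 0 FPKM in KO Reserve libraries, against 17.3, 34.0 and 31.7 FPKM in KO Ctrl libraries (-4.62, SE 0.32, adjusted p = 4.08e-09; -7.05 with a pseudocount of 0.1). Neither gene showed overlap between the groups. Grb10 averaged 6.61 ± 0.331 FPKM in KO Reserve and 8.68 ± 1.64 FPKM in KO Ctrl, a change of -0.33 that did not pass the test (95% interval -0.68 to 0.01, adjusted p = 0.0846), but passed it without KO Ctrl replicate 1 (-0.46, adjusted p = 0.0294). Mest averaged 0.876 ± 0.174 FPKM in KO Reserve and 1.32 ± 0.354 FPKM in KO Ctrl, without overlap and without a limma call (-0.30, adjusted p = 0.27). Meg3 (-0.25, adjusted p = 0.459) and Rian (-0.01, adjusted p = 0.983) overlapped. In the fit without the filter H19, Igf2, Peg3 and Plagl1 were not called. Of these, Plagl1 alone did not overlap (-0.65, adjusted p = 0.0751).

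The low Dlk1 of the reserve libraries came with low megakaryocyte markers in both genotypes. All 5 megakaryocyte markers fell in each reserve comparison, with sums of 80.8 to 135 FPKM in KO Reserve against 11123 to 18411 FPKM in KO Ctrl, and 193 to 215 FPKM in WT Reserve against 20061 to 29533 FPKM in WT, none at 0. The part of these markers in the Dlk1 result was not tested. All 7 granulocyte markers and all 5 tested erythroid markers rose in both comparisons. Of 8 LT-HSC markers 7 fell in KO Reserve against KO Ctrl, where Ndn also fell, with sums of 59.8 to 66.4 FPKM in KO Reserve and 293 to 325 FPKM in KO Ctrl, while 5 rose and 2 fell in WT Reserve against WT, with sums of 178 to 277 FPKM in WT Reserve and 185 to 199 FPKM in WT. Endothelial markers fell for 3 of 3 tested in KO Reserve against KO Ctrl (sums of 1.06 to 1.86 and 14.6 to 19.3 FPKM) and for 2 of 3 in WT Reserve against WT (7.27 to 18.6 and 14.5 to 17.3 FPKM). Lymphoid markers rose for 3 of 4 tested in KO Reserve against KO Ctrl (243 to 334 and 14.3 to 16.4 FPKM) and for 4 of 4 in WT Reserve against WT (392 to 433 and 4.51 to 7.09 FPKM). Progenitor markers rose for 2 of 3 (Flt3, the gene of Flk2, and Cd48) and fell for 1 of 3 (Cd34) in both comparisons. The stated gate is negative for the CD34 and Flk2 proteins. Cd34 RNA averaged 307 to 402 FPKM in the groups without the reserve label, 67.7 in WT Reserve and 10.6 in KO Reserve. Macrophage and dendritic cell markers rose for 1 of 3 tested in KO Reserve against KO Ctrl and for 3 of 3 in WT Reserve against WT. The part of these lists in the results for the imprinted genes was not tested.

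**Figure D3:**
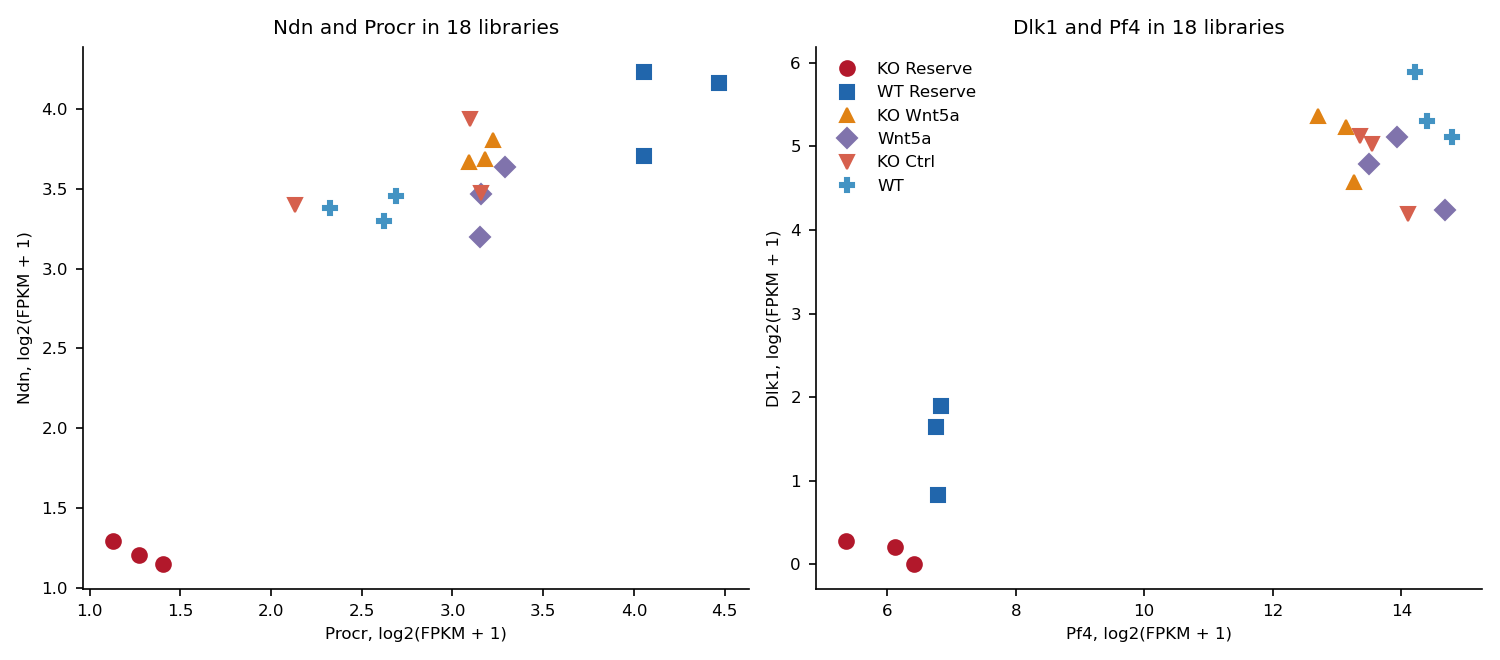
Ndn against Procr (left) and Dlk1 against Pf4 (right) in the 18 libraries, both axes in log2(FPKM + 1), with symbols and colours for the 6 groups. KO Reserve libraries lie lowest on both axes for Ndn and Procr, and the 6 reserve libraries lie apart from the other 12 for Dlk1 and Pf4. Procr is among 8 LT-HSC markers, which did not all follow Ndn. In WT Reserve against WT 5 of them rose, as Ndn did, while Ctnnal1 (-1.98) and Slamf1 (-1.59) fell. In KO Reserve against WT Reserve 7 fell, but Kit averaged 29.5 FPKM in KO Reserve and 28.8 FPKM in WT Reserve.

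The genotype effect in the reserve cells was then set against that in cells without the reserve label, as an interaction. It differed for Ndn and Grb10, 2 of 6 tested genes, against 30.9% of all genes (8.03% higher and 22.9% lower). For Ndn the knockout effect was -2.82 in reserve cells and 0.23 in the other cells, a difference of -3.04 (SE 0.23, 95% interval -3.54 to -2.55, adjusted p = 4.69e-07). For Grb10 it was -0.61 in reserve cells and 0.28 in the other cells, a difference of -0.89 (SE 0.23, adjusted p = 0.00782) that was lost after quantile normalization (-0.51, adjusted p = 0.135) and median-ratio scaling (-0.59, adjusted p = 0.065). For Dlk1 and Meg3 the difference was -0.64 for each, with 95% intervals of -1.61 to 0.33 for Dlk1 and -1.49 to 0.21 for Meg3, so that their fall in KO Reserve was not shown to be particular to reserve cells. With a pseudocount of 0.1 the difference for Dlk1 was -2.47 and was called (adjusted p = 0.0132). All 8 LT-HSC markers were lower by the same interaction, and their part was not tested.

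Outside the reserve libraries none of the 6 tested genes was called by limma, in the fit to all libraries or in a fit to the 12 libraries without the reserve label. H19, Igf2, Peg3 and Plagl1 were not in those fits, and were not called in these comparisons in the fit without the filter. For KO Ctrl against WT 2.65% of all genes were called (1.53% higher and 1.12% lower), and 0 of the 6 tested genes had an unadjusted p below 0.05, against 17.6% of all genes. Dlk1 stood at 17.3, 34.0 and 31.7 FPKM in KO Ctrl libraries, against 38.4, 58.5 and 33.6 FPKM in WT libraries (-0.65, 95% interval -1.34 to 0.03, adjusted p = 0.313). Ndn averaged 11.3 ± 2.61 FPKM in KO Ctrl and 9.38 ± 0.567 FPKM in WT (0.23, 95% interval -0.12 to 0.57, adjusted p = 0.522). The groups did not overlap for Meg3 and Rian, 2 of 6 genes against 27.3% of all genes. Meg3 stood at 0.4, 0.325 and 0.652 FPKM in KO Ctrl libraries, against 1.06, 1.65 and 0.889 FPKM in WT libraries (-0.58, adjusted p = 0.302). Rian stood at 0.061, 0.142 and 0.337 FPKM in KO Ctrl libraries, against 1.64, 1.56 and 0.366 FPKM in WT libraries (-0.84, adjusted p = 0.289). H19 was listed at 0, 0.011 and 0 FPKM in KO Ctrl libraries, against 0.156, 0.39 and 0.314 FPKM in WT libraries, so that KO Ctrl was at or below the level of 3 fragments in every library (adjusted p = 0.535 in the fit without the filter).

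Wnt5a, a Wnt ligand that acts mainly without beta-catenin, was the label compared within each genotype. For Wnt5a against WT 0.049% of all genes were called (0.042% higher and 0.007% lower). Of the 6 tested genes 3 had an unadjusted p below 0.05, as did 7.88% of all genes, and each of these was lower with Wnt5a. Dlk1 averaged 26.1 ± 7.86 FPKM in Wnt5a and 43.5 ± 13.2 FPKM in WT (-0.72, adjusted p = 0.617), Meg3 0.423 ± 0.0889 FPKM in Wnt5a and 1.20 ± 0.402 FPKM in WT (-0.62, adjusted p = 0.623), and Mest 0.346 ± 0.229 FPKM in Wnt5a and 0.976 ± 0.258 FPKM in WT (-0.56, adjusted p = 0.581). Meg3 and Mest did not overlap between the groups, as was the case for 21.5% of all genes. Ndn averaged 9.89 ± 1.63 FPKM in Wnt5a and 9.38 ± 0.567 FPKM in WT, with a change of 0.06 (95% interval -0.29 to 0.41).

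For KO Wnt5a against KO Ctrl 1.02% of all genes were called (0.315% higher and 0.707% lower), and the groups did not overlap for 16.9% of all genes and 0 of the 6. Mest stood at 1.15, 0.102 and 0.185 FPKM in KO Wnt5a libraries, against 1.15, 1.09 and 1.73 FPKM in KO Ctrl libraries. A pair of KO Wnt5a libraries was low and the first was level with KO Ctrl, and the change of -0.71 did not pass the test (adjusted p = 0.215), but passed without KO Wnt5a replicate 1 (-1.01, adjusted p = 0.0291). Mest thus had a lower mean with the Wnt5a label in both genotypes, without a call in either. For KO Wnt5a against Wnt5a 3.23% of all genes were called (1.41% higher and 1.82% lower). Ndn stood at 11.7, 13 and 11.9 FPKM in KO Wnt5a libraries, against 10.1, 11.4 and 8.18 FPKM in Wnt5a libraries (0.29, 95% interval -0.06 to 0.63, adjusted p = 0.405). Grb10 stood at 6.47, 6.12 and 8.60 FPKM in KO Wnt5a libraries, against 6.11, 6.08 and 5.51 FPKM in Wnt5a libraries (0.21, adjusted p = 0.564). There was no overlap for these genes, 2 of 6 against 27.8% of all genes. The interaction of Wnt5a with genotype was called for 0.07% of all genes (0.021% higher and 0.049% lower) and for 0 of the 6, where Dlk1 alone had an unadjusted p below 0.05 (difference 0.99, 95% interval 0.02 to 1.97, adjusted p = 0.818). These comparisons have groups of libraries in common and are not independent of each other.

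Single libraries were high for several of the low genes. Meg3 and Plagl1 were highest among KO Wnt5a libraries in replicate 3, at 1.79 and 1.12 FPKM, while Rian and Mest were highest there in replicate 1, at 2.01 and 1.15 FPKM. Rian varied widely within groups, with 2.07, 0.094 and 0.161 FPKM in WT Reserve libraries and 0.256, 1.10 and 0.055 FPKM in Wnt5a libraries. Per length, Dlk1 was the most abundant of the 10 genes in all 4 groups without the reserve label, whereas Grb10 was the most abundant in KO Reserve, at 6.61 ± 0.331 FPKM, and Ndn in WT Reserve, at 15.6 ± 3.10 FPKM.

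Genes of similar pattern were sought among the genes past the filter, with unnamed gene models and pseudogenes left out. Of these, the genes most like Ndn across the 18 libraries, by Pearson correlation of log2(FPKM + 1), were Ifitm1 (r = 0.973), Tmem176b (r = 0.973) and Gcnt2 (r = 0.968). Ifitm1, an interferon-induced membrane protein gene, averaged 111 ± 15.7 FPKM in KO Reserve and 905 ± 290 FPKM in WT Reserve. Within the 12 libraries without the reserve label the same 3 correlations with Ndn were 0.509, 0.645 and 0.539. Most like Dlk1 were the splicing regulator Ptbp1 (r = 0.985), Raly (r = 0.983) and Tmem9 (r = 0.983), with 0.686, 0.715 and 0.717 in the 12 libraries. Most like Grb10 were Hp1bp3 (r = 0.886), Bex6 (r = 0.855) and Lmbr1l (r = 0.848), with 0.9, 0.774 and 0.899 in the 12 libraries. The points share their groups and libraries, so these values are descriptions.

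Other imprinted genes were counted in the same comparisons. Of 65 listed, 62 were in the table and 38 were tested. In KO Reserve against WT Reserve 17 of the 38 fell and 3 rose, with a median change of -0.25, against 29.3% lower, 12% higher and a median of -0.17 over all genes. Those with the smallest p were H13, the gene of signal peptide peptidase (-0.80, SE 0.096), the tetraspanin gene Cd81 (-0.81, SE 0.11), Cdkn1c (-1.67, SE 0.24) and Blcap (-0.85, SE 0.13). Cdkn1c, which encodes the cyclin-dependent kinase inhibitor p57 and is linked to stem cell quiescence, stood at 1.41 ± 0.342 FPKM in KO Reserve and 6.64 ± 0.782 FPKM in WT Reserve. H13 stood at 51.3 ± 5.06 FPKM in KO Reserve and 90.0 ± 3.89 FPKM in WT Reserve.

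**Figure D4:**
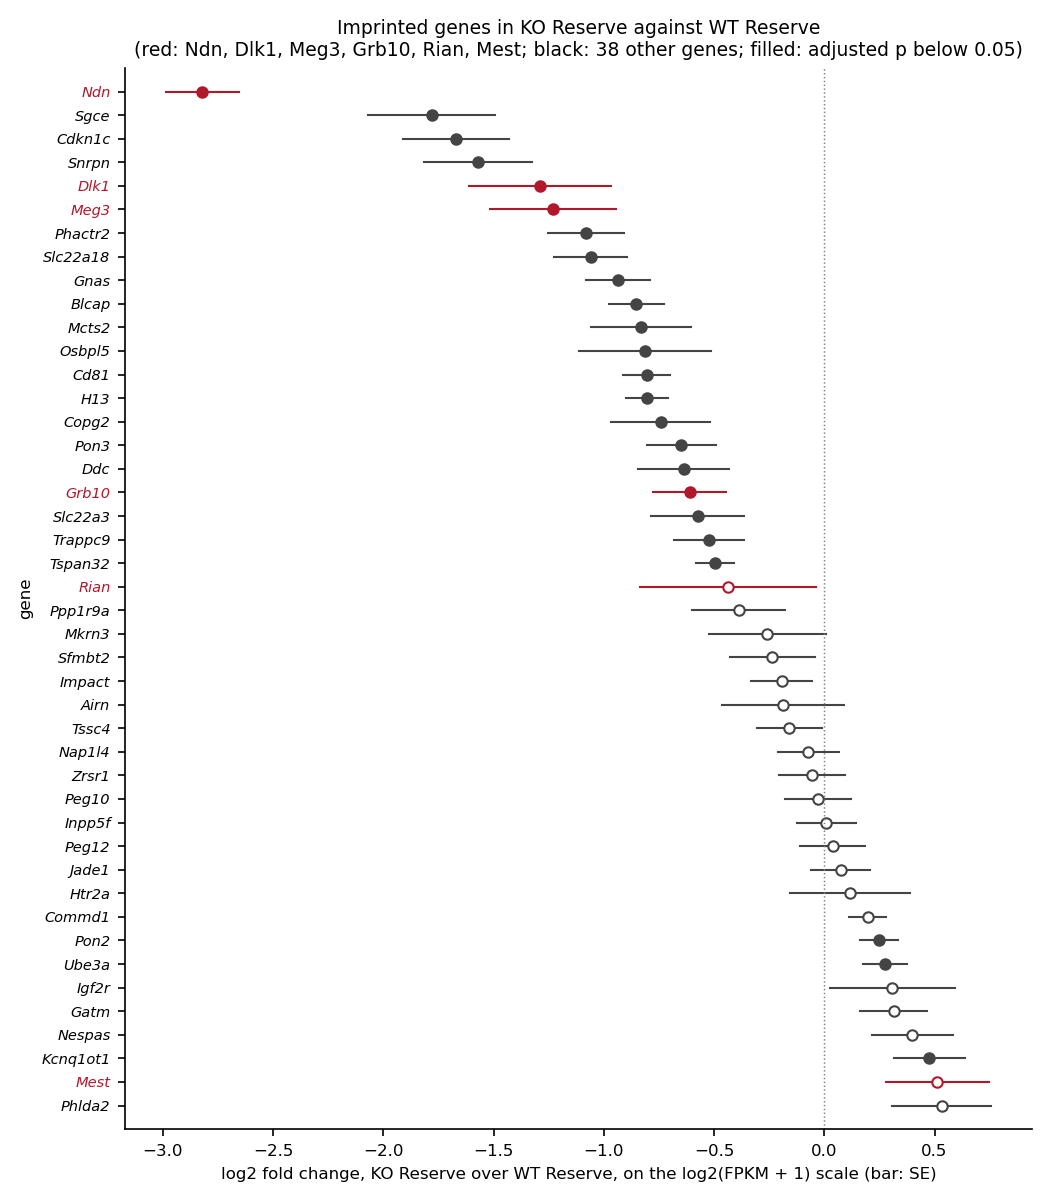
Log2 fold change of KO Reserve over WT Reserve (horizontal axis, on the log2(FPKM + 1) scale, bars show the SE) for the 6 tested imprinted genes (red) and 38 other imprinted genes (black), ordered by size; filled points have an adjusted p below 0.05. Ndn lies lowest at -2.82, with 17 of the 38 other genes called lower and 3 called higher.

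In WT Reserve against WT 15 of the 38 other imprinted genes fell and 10 rose, against 27.9% lower and 30.8% higher over all genes. The ubiquitin ligase gene Ube3a averaged 16.4 ± 1.27 FPKM in WT Reserve and 83.2 ± 4.32 FPKM in WT (-2.28, SE 0.10), and the creatine synthesis gene Gatm 74.9 ± 13.8 FPKM in WT Reserve and 18.7 ± 2.44 FPKM in WT (1.94, SE 0.15). Peg12 and Nap1l4, the next by p, changed by -1.81 and -1.53. In KO Reserve against KO Ctrl 23 fell and 8 rose, against 40.4% lower and 24.8% higher over all genes, led by Ube3a (-2.04), Pon3 (-2.27), Nap1l4 (-1.77) and Peg12 (-1.86). By the interaction of genotype with the reserve label 9 were lower and 0 higher, against 22.9% lower and 8.03% higher over all genes, with the smallest p for Slc22a18 (-1.58), Phactr2 (-1.39), H13 (-0.73) and Snrpn (-1.73), the last a splicing protein gene of the imprinted domain that also holds Ndn. Snrpn averaged 0.180 ± 0.157 FPKM in KO Reserve and 2.71 ± 1.42 FPKM in WT Reserve, against 4.35 ± 1.14 FPKM in KO Ctrl and 3.75 ± 0.481 FPKM in WT. Peg12 (-0.055), Mkrn3 (-0.475) and Ube3a (0.24) of the same domain were tested and not called by this interaction. In KO Reserve against WT Reserve Ube3a was called higher (0.274), and Peg12 (0.038) and Mkrn3 (-0.258) were not called.

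Outside the reserve libraries few other imprinted genes were called. Over all genes 2.65% were called in KO Ctrl against WT, 1.02% in KO Wnt5a against KO Ctrl and 3.23% in KO Wnt5a against Wnt5a. Tspan32, a tetraspanin gene of blood cells, fell in KO Ctrl at 425 ± 6.74 FPKM, against 573 ± 26.6 FPKM in WT (-0.43, SE 0.088, adjusted p = 0.0142). It also fell in KO Wnt5a, at 378 ± 14.9 FPKM, against 537 ± 80.5 FPKM in Wnt5a (-0.50, SE 0.088, adjusted p = 0.00499). Phlda2, a placental growth restrictor, rose in the same comparison, at 19.2 ± 3.38 FPKM in KO Wnt5a and 8.38 ± 1.77 FPKM in Wnt5a (1.12, SE 0.22, adjusted p = 0.0102). Cdkn1c rose in KO Wnt5a, at 13.5 ± 2.74 FPKM, against 5.53 ± 2.85 FPKM in KO Ctrl (1.21, SE 0.24, adjusted p = 0.0179). Peg10 fell in KO Wnt5a, at 0.367 ± 0.0830 FPKM, against 1.38 ± 0.196 FPKM in KO Ctrl (-0.80, SE 0.15, adjusted p = 0.0118). With Wnt5a in wild-type cells 0 of the 38 were called in limma, and 3 had an unadjusted p below 0.05, against 7.88% of all genes. In the fit to the 12 libraries Tspan32 (adjusted p = 0.0198 against WT and 0.0108 against Wnt5a), Phlda2 (0.0114) and Peg10 (0.0326) were called, and Cdkn1c was not (0.0576).

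Of 20 factors that set, maintain or remove imprints 18 were tested. In KO Reserve against WT Reserve 5 rose and 6 fell, against 12% higher and 29.3% lower over all genes. The maintenance methyltransferase gene Dnmt1 rose (24.8 ± 2.89 FPKM in KO Reserve and 15.5 ± 2.46 FPKM in WT Reserve, log2 fold change 0.65), as did the chromatin gene Smchd1 (0.60). Zfp57, whose protein binds methylated imprinting control regions, fell (0.313 ± 0.269 FPKM in KO Reserve and 1.39 ± 0.331 FPKM in WT Reserve, -0.87), as did the Polycomb methyltransferase gene Ezh1 (-0.93). In WT Reserve against WT, where 58.7% of all genes were called, 5 rose and 6 fell, led by Eed (-1.71), Dnmt3b (-1.56), Atrx (1.55) and Tet2 (1.34). In KO Reserve against KO Ctrl, where 65.3% of all genes were called, 4 rose and 6 fell, among them Eed (-2.23), Dnmt3b (-2.21), Ctcf (0.80) and Zfp57 (-1.33). The interaction with the reserve label, called for 30.9% of all genes, was lower for 5, led by Atrx (-1.20) and Ezh1 (-1.18). In KO Wnt5a against Wnt5a 3 rose: Dnmt1 (0.63, adjusted p = 0.0129), its partner Uhrf1 (0.61, adjusted p = 0.0264) and Dnmt3b (0.65, adjusted p = 0.0292), against 1.41% of all genes. In the fit to the 12 libraries their adjusted p was 0.00892, 0.0221 and 0.0242. None was called in limma in KO Ctrl against WT, Wnt5a against WT or KO Wnt5a against KO Ctrl, where 4, 3 and 1 of 18 had an unadjusted p below 0.05, against 17.6%, 7.88% and 10.7% of all genes.

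Igf2 and Grb10 act on insulin-like growth factor signalling, so 22 genes of that pathway were counted, of which 15 were tested. In KO Reserve against WT Reserve 7 fell and 0 rose, against 29.3% lower and 12% higher over all genes. The binding protein gene Igfbp4 averaged 27.7 ± 5.18 FPKM in KO Reserve and 115 ± 27.8 FPKM in WT Reserve (-2.00, SE 0.22), and the ligand gene Igf1 1.21 ± 0.372 FPKM in KO Reserve and 4.44 ± 1.75 FPKM in WT Reserve (-1.27, SE 0.19). Igf2bp2, an RNA-binding protein gene, and Igfbp7 followed by p, at -1.02 and -0.88. In WT Reserve against WT 7 rose and 4 fell, against 30.8% higher and 27.9% lower over all genes, led by Irs2 (-3.20), Igf1 (2.19), the receptor gene Igf1r (-2.16) and Akt2 (-1.55). In KO Reserve against KO Ctrl 3 rose and 8 fell, against 24.8% higher and 40.4% lower over all genes, led by Irs2 (-2.87), Akt1 (-3.20), Akt2 (-1.55) and Igf1r (-1.66). By the interaction with the reserve label 5 were lower, against 22.9% of all genes, led by Igfbp4 (-2.35) and Igf1 (-1.75).

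In KO Ctrl against WT Hmga2 (1, adjusted p = 0.0302) and Igf2bp2 (0.89, adjusted p = 0.0412) rose and Igfbp7 fell (-1.04, adjusted p = 0.0121). Over all genes 1.53% were called higher and 1.12% lower in this comparison. Hmga2, a chromatin protein gene of fetal stem cells, averaged 3.42 ± 1.64 FPKM in KO Ctrl and 1.11 ± 0.245 FPKM in WT. In KO Wnt5a the adaptor gene Irs2 fell, at 3.08 ± 0.692 FPKM, against 8.75 ± 2.50 FPKM in KO Ctrl (-1.24, adjusted p = 0.0134) and against 7.07 ± 2.86 FPKM in Wnt5a (-0.94, adjusted p = 0.0384). Igfbp7 rose in KO Wnt5a, at 4.96 ± 1.39 FPKM, against 2.05 ± 0.294 FPKM in KO Ctrl (0.94, adjusted p = 0.0371). Over all genes 0.315% were called higher and 0.707% lower in KO Wnt5a against KO Ctrl. Against Wnt5a the shares were 1.41% higher and 1.82% lower. None was called in limma in Wnt5a against WT, where 3 of 15 had an unadjusted p below 0.05, against 7.88% of all genes. In the fit to the 12 libraries Igfbp7 (adjusted p = 0.0187) and Hmga2 (0.0406) were called in KO Ctrl against WT and Igf2bp2 was not (0.0631). Irs2 was called there in KO Wnt5a against KO Ctrl (0.0456) and not against Wnt5a (0.0564), and Igfbp7 was not called in KO Wnt5a against KO Ctrl (0.0625).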

How the data were processed

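RNA-seq was carried out on sorted mouse LT-HSC. Per the labels' protocols, a SMARTer ultra low input kit and Nextera chemistry, which keep no strand, gave the libraries. CASAVA 1.8.2, TopHat2 2.0.10, Cufflinks and the mm10 build were used, per the submitters' processing notes; the annotation is not given in the sources used here. The authors deposited 1 table of FPKM for 44349 genes, a unit the header does not name and that was checked on the values.

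GENCODE M21 on GRCm38 gave symbols and positions for 43938 identifiers, and start regions from RefSeq on GRCm38.p6. The 16 genes with missing values were left out. Group labels came from the sample titles. A mean per group was fitted with limma 3.58.1 in R 4.3.3 (trend and robust moderation) to log2(FPKM + 1) of all 18 libraries, restricted to 14285 genes that reached 1 FPKM in 3 or more libraries, and p-values were Benjamini-Hochberg adjusted over all of them within a comparison. The model was tested on simulated data. Depth was inferred from low values of genes with a single transcript, scaled by transcript length, since no counts were used. The lowest clear peak in their histogram was taken as a single fragment, so depth is approximate. Amplified fragments are not independent molecules. Figures used Python 3.11.15 and matplotlib 3.10.9.

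The 10 genes and the gene lists were chosen with earlier results of these data known. All 10 genes are named, and of other lists up to 4 called genes per comparison with the smallest p. For the 3 most abundant members the 3 genes most correlated with each are named, unnamed gene models and pseudogenes left out. A few levels of named marker genes are added. Alternatives were other normalizations, pseudocount, filter, moderation, library subsets, a replicate block and leaving out each library.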

Additional observations from a re-analysis of the deposited data

Results flagged for a closer look

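The effect of the knockout on Ndn differed between reserve cells and cells without the reserve label, by the test of that difference itself. The difference of log2 fold changes was -3.04 (SE 0.23, limma adjusted p = 4.69e-07), with the 3 KO Reserve libraries below the 3 WT Reserve libraries, while KO Ctrl and WT overlapped. It remained called under all 26 other settings, with values from -3.69 to -2.81. Over all genes 30.9% were called for this difference, 22.9% as lower. All 8 LT-HSC markers were lower by the same interaction. Xist averaged 7.4 ± 2.09 FPKM in KO Reserve and 0.334 ± 0.414 FPKM in WT Reserve. The part of the markers and of Xist in the Ndn result was not tested.

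The effect of the knockout on Grb10 differed in the same way, with a difference of -0.89 (SE 0.23, limma adjusted p = 0.00782). KO Reserve libraries lay below WT Reserve libraries, and KO Ctrl and WT overlapped. It was called under 23 of 26 other settings, with values from -1.04 to -0.51 and adjusted p from 0.00324 to 0.876. Of all genes tested 30.9% were called for this difference.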

How the results depend on the processing

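Among single genes and comparisons, 1388 alternative values kept direction and side of the threshold, 19 lost a call, 7 gained one and 20 changed sign, the last all for genes without a call. The planned fit without a filter, which takes in 14091 genes at 0 in every library, left 1 called gene in KO Reserve against WT Reserve (Ndn), 1 in WT Reserve against WT (Dlk1) and 1 for the genotype effect in reserve minus other libraries (Ndn); with those genes left out, chosen after seeing the data, Dlk1, Meg3 and Grb10 were again called in KO Reserve against WT Reserve. With those genes left out, 20% of 30242 genes were called in KO Reserve against WT Reserve. Quantile normalization and median-ratio scaling each left 1 called gene for the interaction with the reserve label. Leaving out each library in turn gave 4 to 5 called genes in KO Reserve against WT Reserve, 3 to 4 in WT Reserve against WT, 2 to 3 in KO Reserve against KO Ctrl, 2 in the interaction with the reserve label and 0 to 1 in KO Wnt5a against KO Ctrl, where Mest was gained. With the replicate number as a block the counts were 4, 4, 2 and 2 in the first 4 of these and 0 elsewhere; same-numbered libraries did not deviate together, with 0 of 45 pairs at a correlation over 0.1 (median 0.000327). Called genes over the whole table numbered 616 to 6062 in KO Reserve against WT Reserve, 15 to 769 in KO Ctrl against WT, 3 to 16 in Wnt5a against WT, 9 to 209 in KO Wnt5a against KO Ctrl, 17 to 729 in KO Wnt5a against Wnt5a, 3127 to 9175 in WT Reserve against WT, 4259 to 10313 in KO Reserve against KO Ctrl, 3 to 22 for the Wnt5a interaction and 99 to 4922 for the interaction with the reserve label. In the fits that leave out a library, 4649 to 5998 of 14285 genes were called in KO Reserve against WT Reserve. The range in those fits was 7563 to 8526 in WT Reserve against WT and 8676 to 9606 in KO Reserve against KO Ctrl. It was 3616 to 4922 in the interaction with the reserve label and 65 to 209 in KO Wnt5a against KO Ctrl.

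Values that changed sign are given as the range over the fits that leave out a library. Rian in KO Reserve against WT Reserve ran from -0.699 to 0.0465. Ndn in Wnt5a against WT ran from -0.0412 to 0.178. In KO Wnt5a against KO Ctrl, Dlk1 ran from -0.0215 to 0.516 and Meg3 from -0.174 to 0.443. In KO Wnt5a against Wnt5a, Mest ran from -0.223 to 0.259, Rian from -0.0265 to 0.638 and Meg3 from -0.142 to 0.475. In KO Reserve against KO Ctrl, Rian ran from -0.116 to 0.0805, and was 0.0299 after median-ratio scaling; Grb10 was 0.0426 after quantile normalization. For the Wnt5a interaction, Grb10 ran from -0.199 to 0.0522, Ndn from -0.0579 to 0.227 and Mest from -0.454 to 0.0271. The causes were not tested. Depth limits Igf2, which lay below the level of 3 fragments in 10 of 18 libraries, and H19, Peg3 and Plagl1 in the 5, 3 and 2 libraries where they lay below it.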
